A study of Mus musculus with 3 samples.

Results

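The TRIM family comprises genes for tripartite motif proteins, most of which are ubiquitin ligases. Its members were taken as every protein-coding gene of GENCODE M21 whose symbol is Trim followed by a number and at most 1 letter, which gave 68 of the 55536 genes measured, and 68 of 22028 protein-coding genes. RNA of the cytosolic fraction, depleted of ribosomal RNA, was sequenced from primary bone marrow-derived macrophages of C57BL/6J mice. All 3 libraries belong to 1 group: per the labels, the cells had 12 h of lipid A at 100 ng/ml, then 12 h without it, and were taken at 0 min of restimulation with the same dose. Lipid A is the part of bacterial lipopolysaccharide that Toll-like receptors sense. No untreated cells were analysed here, so levels are described and no effect of lipid A is measured. The labels number the libraries as biological replicates 1, 2 and 3 under 1 donor identifier and name no animal. The spread given here, and the p-values, thus measure differences between these libraries, which may be technical.

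A typical TRIM protein carries a RING domain that recruits a ubiquitin-loaded E2 enzyme, 1 or more B-boxes, and a coiled coil through which it forms oligomers, followed by a C-terminal domain that picks its target. In the most numerous class that domain is PRY-SPRY. Several TRIM genes are switched on by interferon, and their products ubiquitinate sensors and adaptors of innate immunity or bind viral capsids directly. Others repress transcription in the nucleus, or serve in muscle, neurons, germ cells or the gut.

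Replicate 1 held 28981178 expected counts on genes, replicate 2 held 53119941 and replicate 3 held 46783133. A count of 0 allows up to 0.104, 0.0565 and 0.0641 CPM (counts scaled to library size), taking 3 counts of each total, which covers counting error only. All 8 macrophage markers, among them Lyz2, Cd68, Csf1r and Adgre1, reached 10 TPM in every library. TPM is the deposited transcript abundance, normalised for length and to the same total in each library. None of the 5 neutrophil, 5 T and NK cell, 5 B cell, 5 fibroblast, 4 erythroid or 4 muscle markers reached 1 TPM, and the summed level of each list was at most 0.30 TPM in any library. Ly6g and Retnlg of neutrophils, Cd79a of B cells, Pdgfra of fibroblasts, Hbb-bs of erythroid cells and Acta1, Myh4 and Myog of muscle had 0 counts. The signal recognition particle RNA genes Rn7s1 and Rn7s2 held 56.9%, 65.3% and 52.5% of TPM in replicates 1, 2 and 3, which lowers the TPM of every other gene by construction. In bulk RNA, fewer cells with a transcript and less of it per cell cannot be told apart.

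A minority of TRIM genes carried most of the family's RNA, led by Trim30a. In every library 31 of 68 members (45.6%) reached 1 TPM, against 41.2% of all protein-coding genes. At 10 TPM in every library there were 15 members (22.1%), against 17.1% of all protein-coding genes. The median over members was 0.79 ± 0.093 TPM (SD, n = 3), against 0.157 ± 0.046 TPM over all protein-coding genes. The 6 highest members, Trim30a, Trim30d, Trim14, Trim25, Trim30c and Trim12a, held 56.3% of the summed member TPM, and the 15 highest held 89.0%. At the other end 35 of 68 members stayed under 1 TPM in every library, against 12356 of 22028 protein-coding genes. Trim59 and Trim6 passed 1 TPM in 1 library each, with means of 0.95 and 0.93 TPM.

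**Figure D1:**
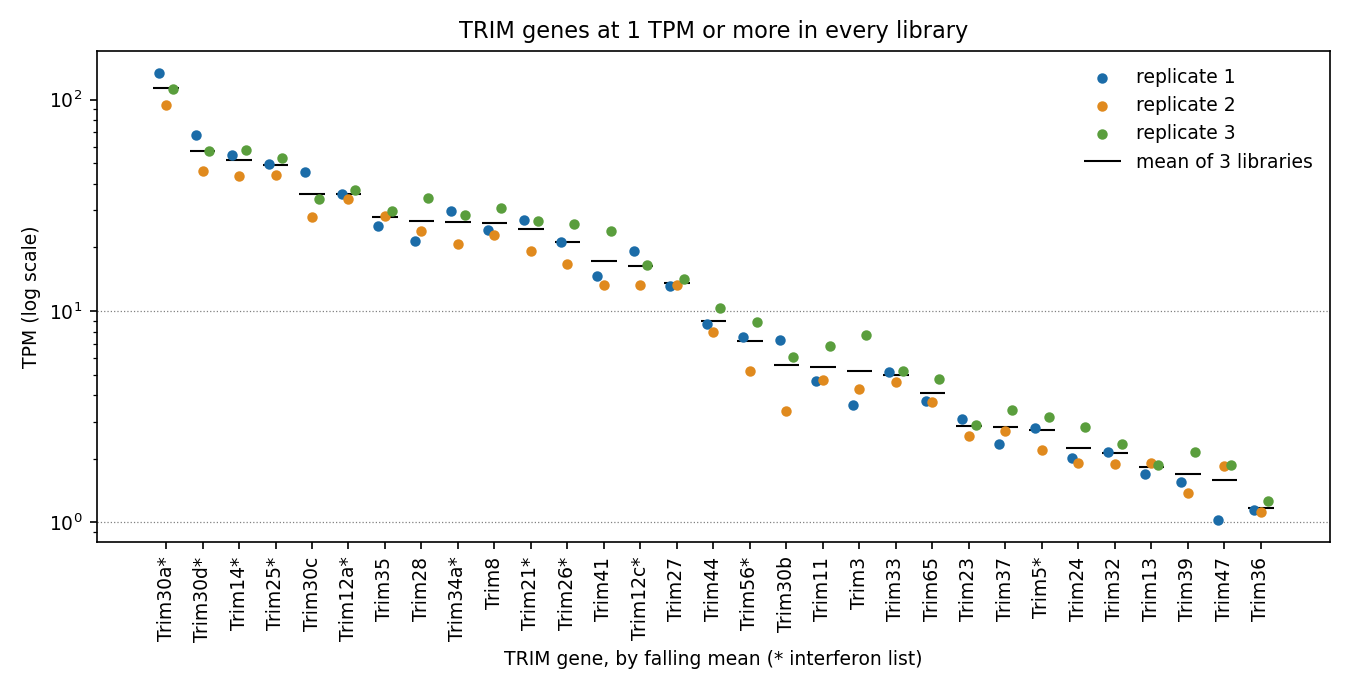
TPM (log axis) of the 31 TRIM genes at 1 TPM or more in every library, ordered by mean, with 1 point per library and a bar at the mean of the 3 libraries; stars mark genes on the interferon list and dotted lines stand at 1 and 10 TPM. Trim30a stands above all others, and most neighbouring genes overlap in their ranges.

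Trim30a had 133.6, 94.1 and 112.5 TPM in replicates 1, 2 and 3. Its lowest library was above the highest library of Trim30d, the next member. Among the 30 neighbouring pairs in the order from Trim30a to Trim36, the ranges over libraries overlapped for 26. The pairs that did not overlap were Trim30a and Trim30d, Trim12a and Trim35, Trim27 and Trim44, and Trim65 and Trim23. For the other neighbours the order is within the spread of the libraries, which does not hold for genes further apart: every library of Trim30d was above every library of Trim12a.

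Interferon-responsive TRIM genes, on a list chosen with earlier results of these data known, were far more abundant than the rest of the family. Of the 12 genes on this list, which holds TRIM genes known to respond to interferon, 11 were at 1 TPM or above and 9 at 10 TPM or above throughout. Together they held 66.5% of the summed member TPM. Their median was 25.3 ± 4.601 TPM (SD, n = 3), against 0.393 ± 0.105 TPM over the other 56 members, of which 20 reached 1 TPM and 6 reached 10 TPM. Trim34b was the only listed gene under 1 TPM.

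Of the 12, 7 lie in the cluster on chromosome 7 (104218793 to 104507849, mm10), a stretch of 289 kb with 10 members in all: Trim6, Trim34a, Trim5, Trim12a, Trim34b, Trim12c, Trim30b, Trim30c, Trim30a and Trim30d. Rodents have expanded this locus, which corresponds to the primate locus of TRIM5, a gene for a capsid-binding restriction factor. Levels within the cluster ran from Trim30a down to Trim34b, and 6 of its 10 members reached 10 TPM in every library. Trim30a (104409025 to 104465193, minus strand) encodes a protein that, in mouse, lowers Toll-like receptor signalling through loss of Tab2 and Tab3. Its neighbour Trim30d had 68.1, 45.8 and 57.3 TPM in replicates 1, 2 and 3. Trim30c had 45.6, 28.0 and 33.7 TPM. Both were highest in replicate 1, as was Trim30a.

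Trim12a was the steadiest of the abundant cluster genes, with 35.6, 33.9 and 37.3 TPM in replicates 1, 2 and 3. Trim34a had 29.8, 20.8 and 28.4 TPM. Trim12c, whose product promotes type I interferon signalling in mouse, had 19.3, 13.3 and 16.5 TPM. All these values lay above every library of the remaining 4 members of the cluster. Trim30b had 7.27, 3.35 and 6.05 TPM, Trim5 2.81, 2.21 and 3.15 TPM, and Trim6 0.88, 0.54 and 1.37 TPM. Trim34b, the near copy of Trim34a, had 0.04, 0.04 and 0.14 TPM, the lowest of the cluster in every library.

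**Figure D2:**
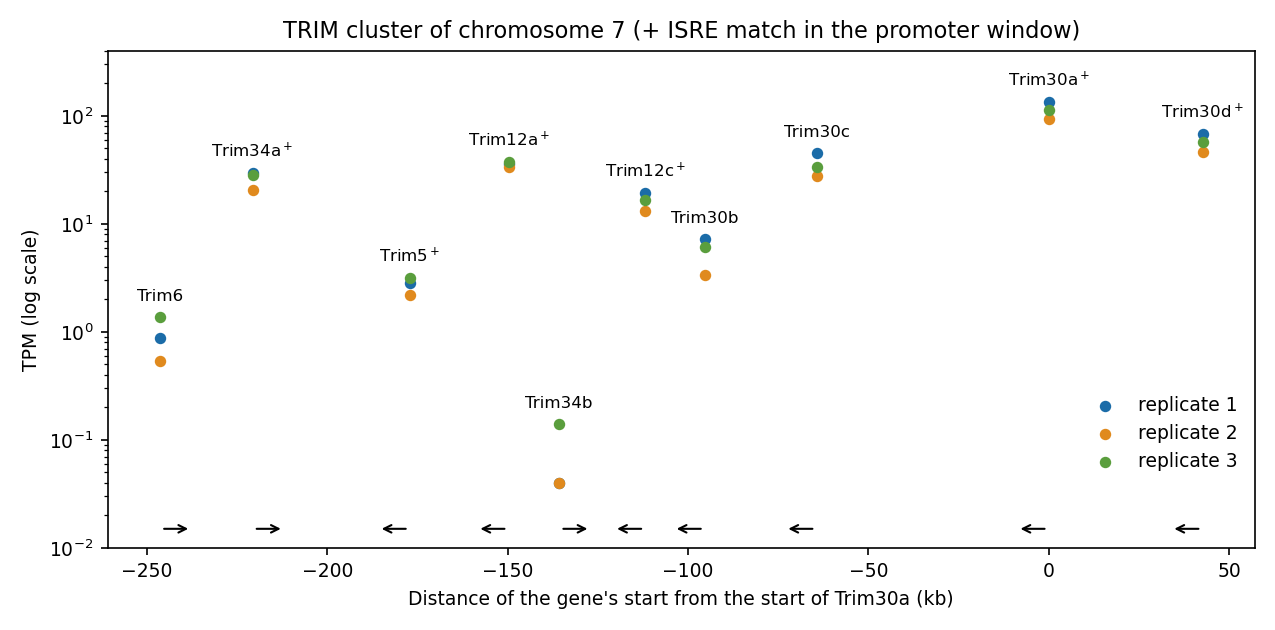
TPM (log axis) of the 10 TRIM genes of the chromosome 7 cluster in each of the 3 libraries, placed by the distance in kb of the gene's start from the start of Trim30a; arrows give the direction of transcription and a plus sign marks genes with an ISRE match. Trim30a and Trim30d stand at one end with the highest levels, and Trim34b, between Trim12a and Trim12c, has the lowest (its points of replicates 1 and 2 coincide at 0.04 TPM).

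Of the 6 cluster genes at 10 TPM or above, all but Trim30c had in their promoters the letters of the interferon-stimulated response element (ISRE), the site bound by interferon-activated transcription factor complexes. Windows of 300 bases, from 250 before to 50 after the start site, were found by symbol for 53 of the 68 members in the RefSeq table (GRCm38.p6). The letters searched were GAAA, any 2 bases and GAAA again, on either strand, and they were present for 9 of these 53 members (17.0%), against 3.94% of 17492 protein-coding genes. The 9 were Trim2, Trim5, Trim12a, Trim12c, Trim21, Trim26, Trim30a, Trim30d and Trim34a, so 6 of the 10 cluster genes had a match. A match was present for 7 of 12 members at 10 TPM in every library and for 2 of 41 other members with a window, Trim5 and Trim2. Cluster genes with near copies of a stretch were each counted, so these shares do not count independent sites. The matches are shown because some cluster genes share them in like surroundings: Trim30a with Trim30d, and Trim12a with Trim12c and Trim5. Those of Trim34a, and of Trim21 and Trim26 outside the cluster, are shown beside them. In each line the strand of the gene is read 5′ to 3′ and capitals mark the match, 1 or 2 overlapping copies, except in Trim30c, where they mark the bases aligned with the match of Trim30a.
Trim30a: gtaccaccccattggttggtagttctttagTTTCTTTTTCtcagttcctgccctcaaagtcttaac
Trim30d: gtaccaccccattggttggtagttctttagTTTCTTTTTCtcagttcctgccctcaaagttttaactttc
Trim30c: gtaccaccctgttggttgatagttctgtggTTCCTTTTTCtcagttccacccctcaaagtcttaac
Trim12a: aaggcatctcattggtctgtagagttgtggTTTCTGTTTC
Trim12c: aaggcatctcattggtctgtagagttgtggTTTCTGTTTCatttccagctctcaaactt
Trim5: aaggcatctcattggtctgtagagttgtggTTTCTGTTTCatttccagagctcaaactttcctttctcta
Trim34a: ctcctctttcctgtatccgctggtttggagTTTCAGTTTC
Trim21: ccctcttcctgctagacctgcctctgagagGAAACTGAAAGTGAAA
Trim26: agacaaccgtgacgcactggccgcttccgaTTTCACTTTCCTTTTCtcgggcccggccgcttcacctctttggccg
The stretches are chr7:104465194-104465259 for Trim30a, chr7:104507851-104507920 for Trim30d, chr7:104400880-104400945 for Trim30c, chr7:104315476-104315515 for Trim12a, chr7:104353350-104353408 for Trim12c, chr7:104288116-104288185 for Trim5, chr7:104244437-104244476 for Trim34a, chr7:102565454-102565499 for Trim21 and chr17:36836956-36837031 for Trim26. Trim26 and Trim34a lie on the plus strand and the others on the minus strand.

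The stretches of Trim30a and Trim30d were identical at 65 of 66 bases, and the 40 bases shown for Trim12a were identical to those of Trim12c and of Trim5. Trim5 had a mean of 2.72 TPM and Trim12a one of 35.6 TPM. The match lay 39 bases before the start site in Trim5 and 11 to 20 bases after it in Trim12a. Whether these stretches bear on level was not tested. The Trim30c stretch, found by its likeness to that of Trim30a, was identical at 58 of 66 bases. Within the 10 capital bases it carried the change T3C, counted from 1 at the 5′ end of the capitals of Trim30a, so the letters searched were not present there. Those bases lay 127 bases before the start site of Trim30c, while the match of Trim30a lay 26 bases before its own. Trim30c had the fifth highest level of the family. The match lay between 19 and 39 bases before the start site in Trim12c, Trim30a, Trim30d and Trim5, and 144 bases before it in Trim26. A further annotated start site of Trim30a also had a match, 3 to 12 bases after it. In Trim12a, Trim34a and Trim21 it lay within the first 29 bases after the start site.

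The letters TTCNNNGAA, on either strand, those of the GAS element of interferon-activated STAT factors, were found for 6 of 53 members (11.3%), against 8.92% of all protein-coding genes. They were Trim15, Trim30c, Trim31, Trim38, Trim45 and Trim46, of which Trim30c alone reached 1 TPM in every library. The letters GGG, any 2 bases and TTTCC, a form of the NF-kappaB site, were found for 0 of 53 members, against 1.86% of all protein-coding genes. With the last base of the ISRE letters dropped, 12 of 53 members matched (22.6%), against 9.43% of all protein-coding genes, the further ones being Trim25, Trim34b and Trim7. Such a match describes sequence and not binding.

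Outside the cluster, the interferon-responsive genes for an adaptor and for ligases of innate sensing ranged from Trim14 down to Trim56. Trim14 (chromosome 4, 46493781 to 46536141, minus strand), which lacks a RING domain and acts as an adaptor at mitochondria in signalling from RNA sensors, had 54.8, 43.7 and 57.8 TPM in replicates 1, 2 and 3. Trim25 (chromosome 11, 88999376 to 89020293, plus strand), whose product ubiquitinates the RNA sensor encoded by Ddx58, had 49.9, 44.0 and 53.0 TPM. Trim21 (chromosome 7, 102557921 to 102565486, minus strand) encodes a cytosolic antibody receptor that sends antibody-coated virus to the proteasome, and had 27.0, 19.3 and 26.7 TPM. All 3 genes were lowest in replicate 2 by TPM. Trim26, known for action on Irf3, had 21.2, 16.6 and 25.8 TPM. Trim56, linked to Sting signalling, was lower at 7.54, 5.23 and 8.83 TPM, with no overlap with Trim26.

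By domain class, members filed under PRY-SPRY held most of the family's RNA. Each other class had between 1 and 3 members at 1 TPM or above in every library. Members lacking a RING, Trim14 among them, were filed apart whatever their C-terminal domain. A further 5 members, with 12.6% of the summed member TPM, were not classed. Of 32 PRY-SPRY members (class C-IV), 15 reached 1 TPM and 10 reached 10 TPM in every library, against 31 and 15 of all 68 members. The class held 63.2% of the summed member TPM. Its median was 0.88 ± 0.262 TPM (SD, n = 3), against 0.79 ± 0.093 TPM over all members. Beside those already given, Trim35 averaged 27.8 ± 2.35 TPM, Trim41 17.3 ± 5.75 TPM, Trim27 13.5 ± 0.573 TPM and Trim11 5.42 ± 1.26 TPM (SD, n = 3). Trim65, for a ligase of the RNA sensor encoded by Ifih1, averaged 4.08 ± 0.618 TPM. Trim39 and Trim47 averaged 1.70 ± 0.403 and 1.58 ± 0.477 TPM. Trim62, Trim68 and Trim7 stayed between 0.35 and 0.97 TPM in every library.

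Chromatin regulators with a PHD finger and a bromodomain (class C-VI) were present with 3 of 4 members. Trim28 (chromosome 7, 12999114 to 13031035, plus strand), the corepressor that KRAB zinc finger proteins use to silence retroelements, had 21.5, 23.9 and 34.3 TPM in replicates 1, 2 and 3. Trim33, a regulator of TGF-beta signalling, averaged 4.98 ± 0.332 TPM, and Trim24 2.25 ± 0.514 TPM (SD, n = 3). Trim66, which is known from the testis, averaged 0.01 TPM.

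In the class with no further domain (C-V), Trim8, whose product activates the kinase encoded by Map3k7, had 24.2, 22.9 and 30.8 TPM in replicates 1, 2 and 3. Besides Trim8, only Trim56 of the 6 members of that class reached 1 TPM in every library. NHL-repeat members (class C-VII) were low: Trim3, a motor-associated ligase of endosomes, averaged 5.19 ± 2.19 TPM, Trim32, mutated in a human muscular dystrophy, 2.12 ± 0.231 TPM, and Trim2 0.67 ± 0.217 TPM (SD, n = 3). Among the single-domain classes, Trim23, which ends in an ARF GTPase domain, averaged 2.85 ± 0.267 TPM, Trim37, which has a MATH domain, 2.82 ± 0.527 TPM, and Trim13, anchored in the endoplasmic reticulum, 1.82 ± 0.110 TPM. Of RING-less members, Trim44 averaged 9.01 ± 1.25 TPM, and Trim16, linked to the clearance of damaged lysosomes, 0.643 ± 0.181 TPM.

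Part of the family had no or almost no RNA. In every library 13 of 68 members had 0 counts, against 7222 of 22028 protein-coding genes, a larger share. The 13 were Trim31, Trim40, Trim42, Trim52, Trim54, Trim58, Trim60, Trim61, Trim63, Trim67, Trim71, Trim72 and Trim80. They include Trim54, Trim63 and Trim72 of striated muscle, Trim58 of the erythroid lineage, Trim71 of early embryos and stem cells, and Trim31 and Trim40, known from the gut. These zeros are of the alignment-derived counts. In the read-derived table Trim52 averaged 0.177 TPM and Trim63 0.032 TPM, and the rest of the 13 were at most 0.0042 TPM. A further 14 members had counts but a mean under 0.1 TPM: Trim34b, Trim15, Trim43c, Trim29, Trim69, Trim75, Trim43b, Trim50, Trim66, Trim9, Trim43a, Trim38, Trim10 and Trim55. Of the 8 members with a COS box, a microtubule-binding element, only Trim36 reached 1 TPM in every library, at 1.17 ± 0.076 TPM (SD, n = 3). The others include Trim9 and Trim67 of neurons, given above, and Trim46, also of neurons, with 0.22, 0.59 and 0.14 TPM in replicates 1, 2 and 3.

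For most expressed members the leading annotated transcript was protein-coding, but Trim30b and Trim12a were exceptions and Trim28 and Trim26 came close. Of the 31 members at 1 TPM or more in every library, 29 (93.5%) had a protein-coding leading transcript, against 95.3% of 9074 protein-coding genes that did so. Trim30b was led by the retained-intron transcript Trim30b-202, which took 80.8%, 85.7% and 62.4% of the gene's transcript TPM in replicates 1, 2 and 3. Its protein-coding transcripts held 1.25, 0.38 and 1.99 TPM, which is far below the level of the gene. Such a transcript keeps intron sequence and is not annotated as making protein.

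Trim12a was led by Trim12a-206, a processed transcript without an annotated reading frame, at 47.6 ± 3.41% of the gene's transcript TPM (SD, n = 3). The protein-coding Trim12a-203 followed at 42.8%, and in the read-derived table it led with 47.5%. The protein-coding transcripts of Trim12a held 19.4, 16.1 and 17.5 TPM. Trim28 gave 42.8 ± 4.84% to its coding transcript Trim28-201 and 43.2 ± 2.96% to retained-intron transcripts. Its coding transcripts held 10.3, 10.2 and 13.0 TPM, while those of Trim30a held 133.6, 93.9 and 112.1 TPM. With protein-coding transcripts only, 29 members reached 1 TPM and 15 reached 10 TPM in every library, an alternative chosen after seeing the data.

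**Figure D3:**
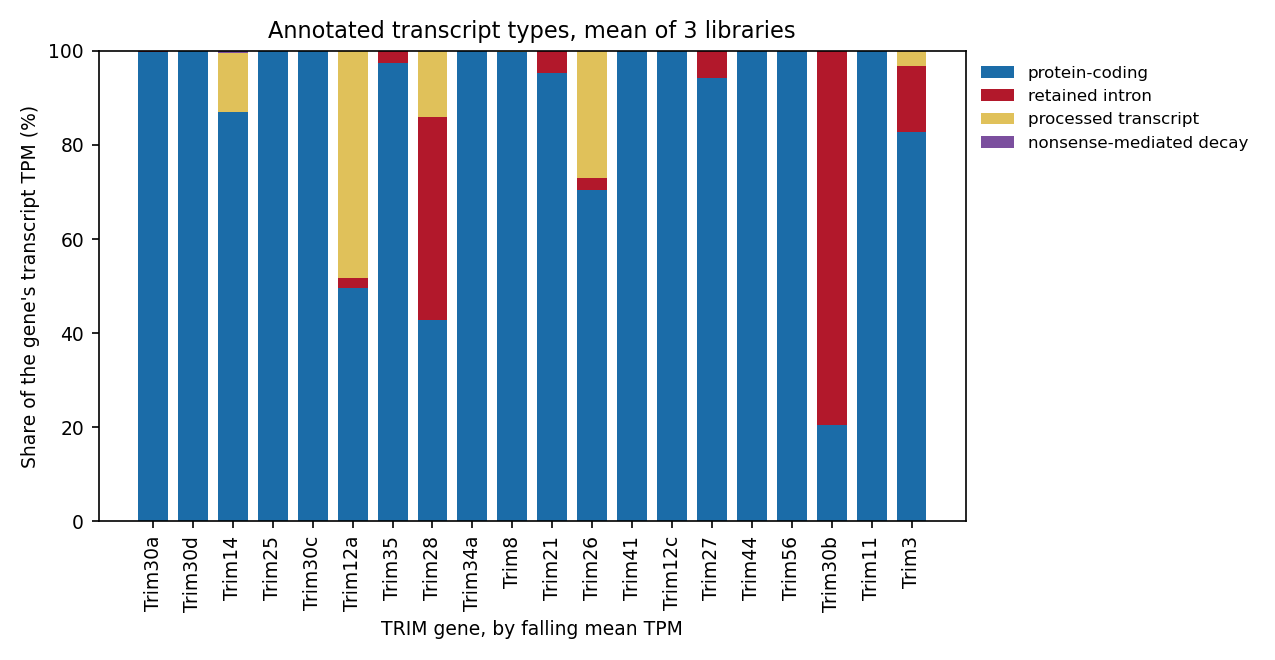
Share of each gene's transcript TPM (%, stacked bars, mean of 3 libraries) in annotated transcript types, for the 20 TRIM genes with a mean of at least 5 TPM, ordered by falling mean. Retained-intron transcripts take most of Trim30b and a large part of Trim28, and processed transcripts a large part of Trim12a and Trim26.

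Retained-intron shares tended to be highest in replicate 3, as for other genes. Of the 13 members with a measured retained-intron transcript, 11 (84.6%) had the highest share in replicate 3, against 86.1% of 5522 protein-coding genes with such a transcript. Trim3 had 1.67%, 5.13% and 34.7% in replicates 1, 2 and 3, and Trim21 1.52%, 2.28% and 10.1%. The exceptions were Trim30b and Trim28, whose shares were lowest in replicate 3 and highest in replicate 2.

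How reads were divided among close copies bears on several members. Of all 31-base words (sense strand) in the transcripts of Trim34b, 69.0% also occur in Trim34a, and 48.7% of those of Trim34a occur in Trim34b. Trim5 and Trim12c share 37.9% of the words of Trim5 and 38.7% of those of Trim12c. The 3 Trim43 genes share between 58.6% and 64.5% of their words with other genes. The split of reads within these groups is uncertain. By contrast, other genes held 11.7% of the words of Trim30a, 11.9% of those of Trim30d and 5.69% of those of Trim30c. The authors' deposited interval for Trim34a was 28.3 to 30.3 TPM in replicate 1, against 0.011 to 0.125 TPM for Trim34b, so the gap between them exceeds that interval.

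The read-derived table gave lower TPM for all 31 members whose mean was at least 1 TPM, by a ratio of 2.20 to 3.22 (median 2.59), against a median of 2.55 over all protein-coding genes at that level. Protein-coding genes held 30.98%, 27.2% and 31.6% of TPM in the alignment-derived tables of replicates 1, 2 and 3, and 14.4%, 12.2% and 8.71% in the read-derived tables. With both rescaled to protein-coding genes, the ratio lay between 0.857 for Trim30b and 1.22 for Trim28. Levels of these 31 members relative to each other were thus alike within that range in both tables, while absolute TPM was not. Among members with a lower mean the tables could differ more. The rescaled ratio was 0.526 for Trim34b, 0.689 for Trim6 and 0.725 for Trim2, but 1.06 for Trim62.

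Between the libraries, TRIM genes varied about as much as other protein-coding genes. Counts scaled by the trimmed mean of M-values (TMM) were compared over all genes with a chi-square test of homogeneity, which tests these libraries and not a condition. Of 41 members tested, 3 (7.3%) differed at a Benjamini-Hochberg adjusted p under 0.05 with a highest-to-lowest ratio of at least 2, against 8.12% of protein-coding genes. The test covers counting error only, and at any ratio 33 members (80.5%) passed it, against 75.9% of protein-coding genes. The median ratio was 1.28 for members and 1.27 for 11540 protein-coding genes. The median biological coefficient of variation from edgeR was 0.156 for the 41 members and 0.159 for protein-coding genes.

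The 3 members that differed were Trim30b, Trim46 and Trim17. Trim30b had 40.4, 19.7 and 28.3 TMM-scaled CPM in replicates 1, 2 and 3, a ratio of 2.05 (chi-square, adjusted p = 3.15e-62). Trim46, of the axon, had 1.00, 2.05 and 0.512 CPM, a ratio of 3.94 (adjusted p = 4.87e-11), and Trim17 0.752, 0.379 and 1.54 CPM, a ratio of 3.98 (adjusted p = 1.01e-08). Trim46 was highest in replicate 2 and Trim17 in replicate 3. Trim47 and Trim16 fell just short, with ratios of 1.99 and 1.97. Without replicate 1 Trim17 and Trim46 were called, beside 5.32% of protein-coding genes. Without replicate 2 Trim17 alone was called, beside 5.25%, and without replicate 3 Trim30b, Trim46 and also Trim47, beside 3.77%. Trim17 overlaps Hist3h2a on the same strand and shares 18.2% of its words with it, and Trim46 overlaps Krtcap2 on the opposite strand. No source used here says whether counting took strand into account, so reads of Trim46 and Krtcap2 may not be separable, nor those of Trim14 and Nans, Trim28 and Zbtb45, or Trim41 and Rack1.

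**Figure D4:**
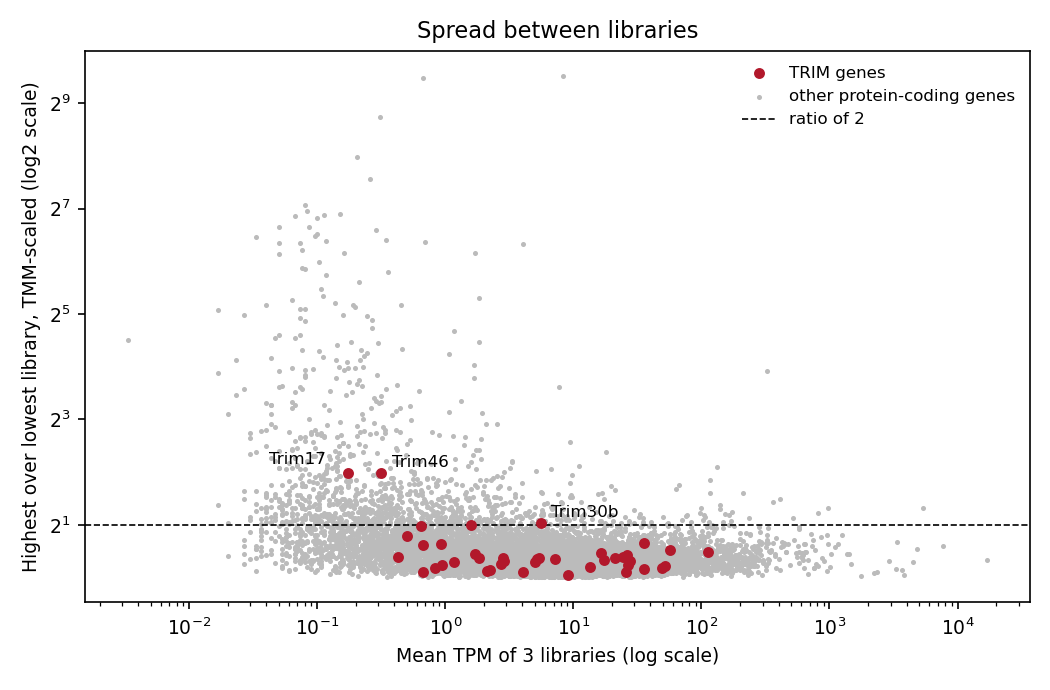
Ratio of the highest to the lowest library (TMM-scaled counts, log2 axis) against mean TPM of the 3 libraries (log axis) for the 41 TRIM genes tested and the other protein-coding genes tested, with a dashed line at a ratio of 2. Only Trim30b, Trim46 and Trim17 of the TRIM genes lie above the line.

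The interferon-responsive members, on the same list as above, mostly leaned towards replicate 1, some of them by little. Of the 11 tested, 10 were highest in replicate 1 and 1, Trim56, in replicate 3, while 7 of the 30 other members were highest in replicate 1. Of all 41 members tested, 17, 12 and 12 were highest in replicates 1, 2 and 3, against 33.1%, 39.2% and 27.7% of protein-coding genes tested. The median log2 ratio of replicate 1 to the other libraries was 0.20 for the 11 genes, against -0.08 for the other members and 0.00 for all protein-coding genes. Trim30a had 812.6, 608.9 and 577.7 TMM-scaled CPM in replicates 1, 2 and 3, Trim30d 288.7, 204.9 and 200.9, and Trim12c 116.1, 85.2 and 84.1. Replicate 1 stood above the other libraries for each of these 3 genes. For other listed genes the gap was small. Trim14 had 100.0 and 99.0 CPM in replicates 1 and 3, Trim26 87.8 and 86.0, and Trim5 16.5 and 15.7. Trim12a had 53.0 and 51.4 CPM in replicates 1 and 2. Trim30c, which is not on the list, had 115.6, 76.4 and 73.0 CPM. The size of this lean, under 1.5-fold for all 11 listed genes, is below the ratio of 2 used for calls, and no test sets these libraries apart as groups. By TPM the order differed, and Trim14, Trim25, Trim12a, Trim26 and Trim5 were highest in replicate 3. Why the order differed was not tested.

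**Figure D5:**
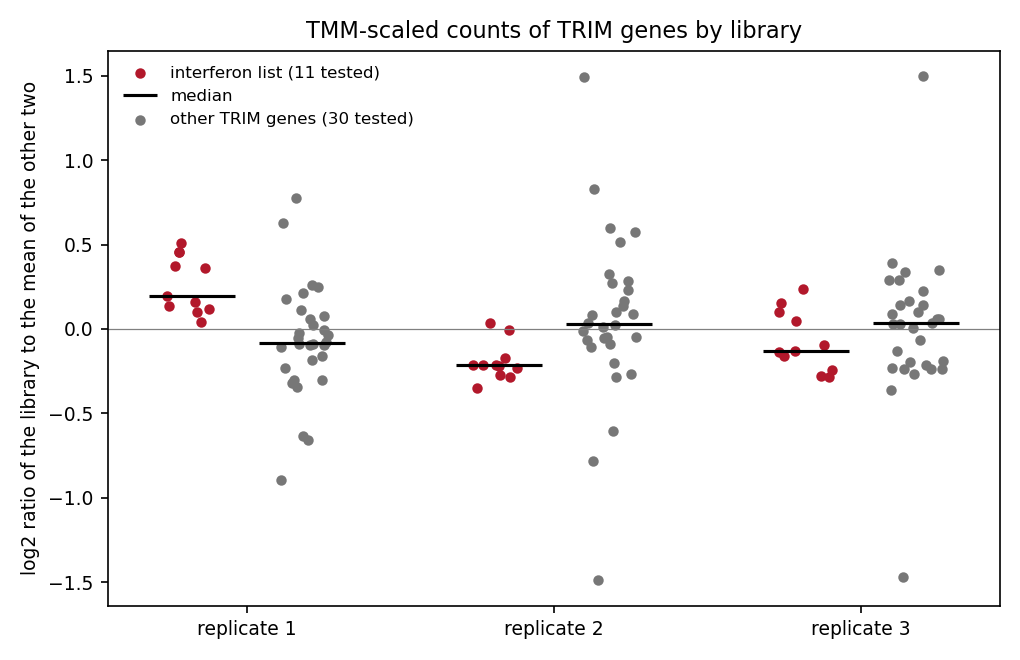
log2 ratio of each library's TMM-scaled count to the mean (on the log2 scale) of the other libraries, for the 11 interferon-list members and the 30 other TRIM genes tested, 1 point per gene with bars at the medians. All interferon-list points lie above 0 in replicate 1, with a median of 0.20, and the other members scatter around 0.

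Of 9 genes for TRIM proteins filed under other symbols, 3 reached 1 TPM in every library. Pml, the organiser of nuclear bodies, had 37.0, 25.8 and 41.3 TPM in replicates 1, 2 and 3, Mid1, a microtubule-associated ligase, 25.9, 10.8 and 19.9 TPM, and Mefv, for the inflammasome protein pyrin, 5.52, 2.72 and 3.17 TPM. Only Pml, Mid1, Mefv and Fsd2 of this list averaged enough counts to be tested. Mid1 and Mefv differed between libraries by the criteria above, with ratios of 2.25 and 2.05, as did 8.12% of protein-coding genes tested. Mid2, Rnf207, Bspry, Cmya5, Fsd1 and Fsd2 were at 0.10 TPM or less in every library. Fsd2 also passed those criteria, with a ratio of 3.37, though at a mean of only 0.053 TPM.

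The E2 enzymes that TRIM ligases work with were all expressed. All 10 were at 1 TPM or above in each library, 7 of them at 10 TPM or above, and their median was 48.2 ± 3.72 TPM (SD, n = 3). Ube2d3, a broadly used E2, was highest at 127.1 ± 12.9 TPM, followed by Ube2l3 at 78.9 ± 2.95 TPM. Ube2d2a averaged 52.6 ± 6.95 TPM. Ube2n and Ube2v1, which together build lysine-63 chains, averaged 47.4 ± 4.24 and 49.5 ± 2.73 TPM. Ube2e1 averaged 22.2 ± 1.89, Ube2v2 10.4 ± 2.09, Ube2w 8.91 ± 0.202 and Ube2d1 6.40 ± 0.810 TPM. None of the 10 differed between libraries by the criteria above, against 8.12% of protein-coding genes tested, and their ratios were at most 1.51.

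All 16 partners and substrates on the list reached 1 TPM, and 9 reached 10 TPM, in every library. Irf7, which drives type I interferon genes, stood highest at 738.5 ± 207.2 TPM, then Sqstm1, the autophagy receptor, at 233.7 ± 76.0 TPM (SD, n = 3). The Trim25 substrate gene Ddx58 averaged 110.7 ± 25.2 TPM and Ifih1, the Trim65 substrate gene, 50.1 ± 12.6 TPM. Vcp, an unfoldase used by Trim21, averaged 66.7 ± 11.4 TPM. Tab2 averaged 25.9 ± 2.33 TPM and Tab3 3.04 ± 0.232 TPM, both below the level of Trim30a. Becn1, Mavs, Tmem173 and Irf3 averaged 33.9 ± 4.16, 13.5 ± 2.46, 11.1 ± 0.495 and 10.8 ± 2.98 TPM. Setdb1, the histone methyltransferase recruited by Trim28, averaged 8.30 ± 2.06 TPM, and the heterochromatin protein gene Cbx5 5.71 ± 0.647 TPM. Ikbkg, Map3k7 and Traf6 lay between 4.12 and 9.04 TPM in every library. Of the 16, Sqstm1 alone differed between libraries, with a ratio of 2.18 and its highest level in replicate 2. Of protein-coding genes tested, 8.12% differed.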

How the data were processed

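Abundances came from transcriptome alignments on mm10 with GENCODE M21, and separately from the reads themselves, per the README files deposited with them. No source used here names the aligner or quantifier. Expected counts, per the file headers, are estimates in which the authors split shared reads between features. TPM, posterior mean TPM and FPKM were normalised by the authors for length and library total, per the file headers, with the deposited interval of TPM beside them. Rows that name no gene, 26345 of 81881 with 0.165% to 0.418% of each library's expected counts, entered neither library sizes nor tests.

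Levels are deposited TPM, as mean ± SD over 3 libraries. Expected counts, rounded to whole numbers, were scaled by TMM (edgeR 4.0.16 in R 4.3.3). edgeR also estimated the biological coefficient of variation, over 12090 genes whose lowest library held at least 10 counts. With 1 group there is no contrast for a quasi-likelihood test, so libraries were compared by chi-square over 13636 genes averaging at least 10 counts, with 0.5 counts added for ratios. Promoters are RefSeq windows on GRCm38.p6, and gene coordinates are those of GENCODE M21 on mm10. Alternatives were other quantifications, scalings, thresholds, DESeq2 1.42.0 size factors and leaving out each replicate. Tables were handled in Python 3.11.15 with numpy 2.4.6 and pandas 2.3.3, tests in scipy 1.17.1 and plots in matplotlib 3.10.9.

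Members and lists were chosen with earlier results of these data known. Named by rule are members averaging at least 5 TPM, lying in the chromosome 7 cluster, differing between libraries, differing 2-fold between quantifications at 1 TPM or above, or led by a non-coding transcript, the 3 highest of each domain class, members at 0 counts, and the genes of the 3 further lists, of which 1 is not reported here. Other members were named after their values were seen. The domain classes leave out Trim12a, Trim30b, Trim30c, Trim34b and Trim80.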

Additional observations from a re-analysis of the deposited data

How the results depend on the processing

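The number of members at 1 TPM in every library stayed within 1.5 times the reported 31 under all alternatives, from 23 with read-derived TPM to 39 with TPM rescaled to protein-coding genes. At 10 TPM the number was 5 with read-derived TPM, 10 at a threshold of 20 TPM and 22 with either table rescaled, against 15. The median over members was 1.31 with FPKM, 0.997 with posterior mean TPM, 0.324 with read-derived TPM, 2.65 with TPM rescaled, 2.83 with read-derived TPM rescaled (chosen after seeing the data) and 9.01 TPM over members averaging 1 TPM or above. That of the interferon list was 41.7, 9.76, 84.2 and 83.1 with FPKM, read-derived TPM, TPM rescaled and read-derived TPM rescaled. The members differing between libraries were 9 at a ratio of 1.5 (19.7% of protein-coding genes), and 1 to 3 with a replicate left out (3.77% to 5.32% of protein-coding genes). Members led by a coding transcript were 16 among those at 5 TPM or more, where fewer genes enter, and 27 without replicate 1, against 29. Members whose quantifications differ 2-fold were 20 of 20 averaging 5 TPM or above, and 0 after rescaling. ISRE matches before the start site alone were found for 5 members (9.43%, against 3.48% of all protein-coding genes). Of the 39 named members, 3 moved by more than 1 SD with posterior mean TPM and 34 with read-derived TPM. Leaving out 1 of 3 libraries cannot move a mean by 1 SD, so it tests nothing for single members. Depth limits members under about 10 counts, which were not tested. No paired analysis was possible because the series has 1 group.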
